A study of Mus musculus with 6 samples.

Results

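The 10 genes described here, apart from Oit3, encode receptors by which sinusoidal liver endothelial cells (ECs) bind blood-borne ligands and take them up. Oit3 encodes a secreted protein and is counted with the receptors below only because it is on the list. All 10 were listed by name, as sinusoidal scavenger and endocytic receptors, at a time when earlier results of these data were known. The list holds Stab1, Stab2, Mrc1, Fcgr2b, Lyve1, Clec4g, Cd209b, Scarf1, Msr1 and Oit3, which are 10 of the 24421 gene symbols in the deposited count table. All 10 passed the filter on low counts. RNA came from liver ECs that had been sorted by FACS as CD31+CD45- cells from wild-type (WT) C57BL/6J mice, with 50000 cells per sample. The young group held 3 samples from 10-week-old mice. The aged group held 1 sample each of 127, 131 and 136 weeks, and these are named here by their age. Values are given in the order of replicates 1, 2 and 3 for the young samples and of 127, 131 and 136 weeks for the aged samples. No treatment is given for either group, and all mice of the study were female by its methods, which also state that animals with visible tumours or an enlarged liver or spleen were left out. The gate takes ECs of sinusoids, larger vessels and lymphatics together, so that in these bulk samples fewer sinusoidal cells and less RNA per sinusoidal cell cannot be told apart. The methods speak of independent samples but do not say that each came from a single mouse, and the p-values measure the spread between these samples.

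Sinusoidal ECs line the capillaries of the liver. They have open pores and no continuous basement membrane, and they clear waste macromolecules from the blood by clathrin-mediated endocytosis. A receptor on the cell surface binds its ligand, is drawn into a coated pit, releases the ligand in an acidified endosome and often returns to the surface, while the ligand goes on to the lysosome. The stabilins and the class A, F and other scavenger receptors bind modified proteins and polyanions, the mannose receptor and the C-type lectins bind sugars, and Fc gamma receptor IIb binds IgG immune complexes.

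Of the 10 receptor genes, 8 had lower values in every aged sample than in any young sample, namely Stab1, Stab2, Mrc1, Fcgr2b, Clec4g, Cd209b, Msr1 and Oit3. Among all 14612 genes tested, 8.33% were ordered in this way. No receptor had all aged above all young values, an order found in 9.62% of all genes. Levels are given as CPM, which are counts relative to the size of their library after TMM scaling, and groups were compared with the quasi-likelihood test of edgeR with Benjamini-Hochberg adjustment over all genes tested. The same 8 receptors had an unadjusted p below 0.05 in that test, against 4.32% of all genes (631 genes) in the lower direction and 8.32% (1216 genes) in the higher one. With library totals in place of TMM these counts were 423 and 1430, and the 8 receptors were the same. The shares of 4.32% and 8.32% are also the background for the edgeR counts at this p in the gene lists below. No receptor passed an adjusted p of 0.05 with a log2 fold change beyond 1, and neither did any other gene in edgeR, where the background share is 0% and the smallest adjusted p of any gene was 0.0735. With the Wald test of DESeq2, 5 of the 10 passed, Stab2, Mrc1, Clec4g, Msr1 and Oit3, against 0.527% of all genes (77 genes), and 0 passed in the higher direction, against 2.7% (395 genes). The median log2 fold change of aged over young ECs was -1.22 over the 10 receptors and 0.0098 over all genes tested.

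**Figure D1:**
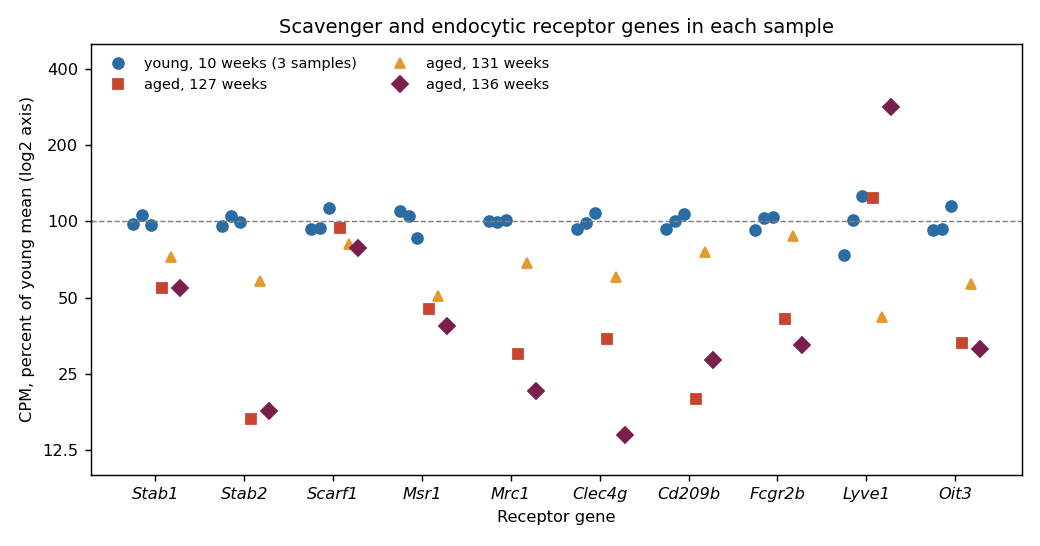
Level of each receptor gene in each sample, as a percentage of the mean of the 3 young samples (vertical axis, CPM, log2 axis). Circles are young samples, and the square, triangle and diamond are the aged samples of 127, 131 and 136 weeks. The triangle lies above the square and the diamond for the 8 genes named above, while Lyve1 runs from 42.0% to 283% in the aged samples.

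The total counts of the libraries ran from 23001556 to 31651817. The 10 receptors together took 1.54% to 1.75% of all counts in the young samples and 0.721%, 1.04% and 0.607% in the aged samples. The CD31 gene Pecam1 had a similar CPM at both ages (log2 fold change 0.01, SE 0.17, adjusted p = 0.985 in edgeR), and the CD45 gene Ptprc was between 1.17 and 1.70 CPM in the young samples and at 7.57, 1.28 and 25.6 CPM in the aged samples. The libraries also differed in a way that age does not explain. Ribosomal RNA reads assigned to Lars2 and Rn45s made up 1.29% of the counts of young replicate 3 and 0.960% of those of the 127-week sample, against 4.68% to 5.53% in each of the remaining 4 libraries. Below, the pooled difference of each of the 10 receptors is followed by those within these clusters of libraries. The cluster with many such counts holds 2 young and 2 aged samples and the cluster with few holds 1 of each. The within-cluster values are printed as a description. In a fit of edgeR over all 6 samples with a term for the cluster, 8 of the 10 receptors were lower with an unadjusted p below 0.05, against 6.58% of all genes. These were the genes named above but with Scarf1 in place of Fcgr2b, and none had an adjusted p under 0.163.

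The promoters of 4 receptor genes are shown because these genes were lower together, each with a log2 fold change below -1, and can be read here for shared letters. Each line gives the 250 bases before the gene's start on the gene's own strand, 5′ to 3′, from RefSeq on build GRCm38.p6. They come from chr10:87007943-87008192 (minus strand) for Stab2, chr2:14229164-14229413 (plus strand) for Mrc1, chr8:3720652-3720901 (minus strand) for Clec4g and chr8:3926842-3927091 (minus strand) for Cd209b. Capitals mark AGATAG, a word with the GATA core.
Stab2: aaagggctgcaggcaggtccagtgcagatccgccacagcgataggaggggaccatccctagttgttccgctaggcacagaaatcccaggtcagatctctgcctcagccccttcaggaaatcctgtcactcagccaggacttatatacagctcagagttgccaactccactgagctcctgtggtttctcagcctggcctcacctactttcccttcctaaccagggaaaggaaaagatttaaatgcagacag
Mrc1: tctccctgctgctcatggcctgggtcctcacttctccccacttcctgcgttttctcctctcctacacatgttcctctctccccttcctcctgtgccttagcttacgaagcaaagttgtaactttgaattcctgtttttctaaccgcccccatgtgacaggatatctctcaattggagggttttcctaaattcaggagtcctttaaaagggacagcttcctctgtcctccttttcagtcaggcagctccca
Clec4g: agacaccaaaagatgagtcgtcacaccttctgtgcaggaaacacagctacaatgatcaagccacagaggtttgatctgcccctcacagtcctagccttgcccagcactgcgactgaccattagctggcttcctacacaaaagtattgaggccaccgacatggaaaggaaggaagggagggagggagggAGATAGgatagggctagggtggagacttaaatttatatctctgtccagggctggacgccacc
Cd209b: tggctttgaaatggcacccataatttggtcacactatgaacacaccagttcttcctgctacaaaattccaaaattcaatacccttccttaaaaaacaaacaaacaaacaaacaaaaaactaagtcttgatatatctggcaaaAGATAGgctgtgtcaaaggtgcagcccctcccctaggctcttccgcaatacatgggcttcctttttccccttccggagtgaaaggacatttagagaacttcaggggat

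Of the 10 genes, 6 had an entry in the promoter table, Stab1, Stab2, Mrc1, Fcgr2b, Clec4g and Cd209b, and Lyve1, Scarf1, Msr1 and Oit3 had none. Words bound by 3 families of endothelial transcription factors (GATA, ETS and AP-1) were searched on both strands. The word AGATAA, which factors of the first of these families bind, stood in 0 of the 6 windows and in 9.99% of all 32851 windows of this length. ACAGGAAG, an ETS word, was in 0 of 6 and in 2.90% of all windows, and TGAGTCA, an AP-1 word, in 0 of 6 and in 4.46%. After these counts were seen, 3 further words with the GATA core were searched. AGATAG stood in 2 of the 6 windows and in 7.71% of all, from base -62 to -57 before the Clec4g start and from -108 to -103 before the Cd209b start. TGATAA and TGATAG stood in 0 of 6 windows, and in 7.94% and 6.35% of all. A match is a description of letters, and a window without one says only that these words are not in it.

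The stabilins are large scavenger receptors of sinusoidal ECs that share ligands such as modified low-density lipoprotein. Stabilin-2 is also the main receptor for the clearance of hyaluronan from the blood. Stab2 (chr10:86303943-86470770 of mm9, minus strand) reached 2902, 3199 and 3021 CPM in young ECs and 504, 1759.8 and 542 CPM in aged ECs. The young samples lay close together, the 131-week sample lay between the young and the other aged samples, and the ages did not overlap. Young ECs averaged 3041 ± 149 CPM and aged ECs 935 ± 714 CPM (mean ± SD of 3 samples each), and edgeR gave a log2 fold change of -1.70 (SE 0.49, adjusted p = 0.265). This was the largest log2 fold change in size among the 10 receptors in edgeR over all 6 samples. With DESeq2 the adjusted p was 0.0095. Within the clusters with many and with few ribosomal counts, the log2(CPM + 1) difference was -1.64 and -2.58. In the former cluster Clec4g differed more, by -1.71. Without the 131-week sample the log2 fold change was -2.54, and without the 127-week sample it was -1.40.

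Stab1 (chr14:31952199-31981827 of mm9, minus strand) had 2690.3, 2897 and 2657 CPM in the young samples and 1496, 1982 and 1502 CPM in the aged samples. Here too the ages were apart, and among the aged samples the highest value was that of 131 weeks. The log2 fold change was -0.73 (SE 0.19, adjusted p = 0.254 in edgeR), and -0.69 and -0.83 as differences within the clusters. DESeq2 gave an adjusted p of 0.0038, with a change that did not reach the fold set for a call. Because a ratio of counts within a library does not depend on the scaling between libraries, Stab1 was also set against Stab2. Stab2, the receptor with the largest log2 fold change in size, is the denominator of all 4 ratios tested. A receptor that was lower by less therefore tends to a higher ratio in aged ECs, and the 4 ratios are not independent of each other. The log2 ratio of Stab1 to Stab2 was -0.11, -0.14 and -0.19 in the young samples and 1.57, 0.17 and 1.47 in the aged samples. All aged values were above all young values, and the means differed by 1.22, with a two-sided exact permutation p of 0.1 (0.133 adjusted over the 4 ratios tested), which is the smallest p that 3 samples against 3 allow. Stab2 overlaps the opposite-strand transcript Gm16268 by 141 bases of exon and Stab1 overlaps Nt5dc2 on the other strand by 109 bases. The sources used here do not give the strand setting of the counting, so reads from these short stretches cannot be assigned.

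Msr1 (chr8:40667054-40728032 of mm9, minus strand) encodes the class A scavenger receptor, which binds modified lipoproteins and bacterial polyanions and is also known from macrophages. Its level was 551, 522 and 428 CPM in the young samples and 226, 253 and 193 CPM in the aged samples. The aged samples were close to each other, unlike those of the other receptors that were lower by a log2 fold change beyond 1. Young ECs averaged 500.3 ± 64.5 CPM and aged ECs 224 ± 30.1 CPM (mean ± SD of 3 samples each). Msr1 had the smallest p of the 10 in edgeR, with a log2 fold change of -1.16 (SE 0.18, adjusted p = 0.177), which put it at rank 21 of 14612 genes. The adjusted p was 7.4e-07 with DESeq2 and 0.0473 with limma-voom, the only receptor to pass in the latter. Differences within the clusters were -1.28 and -0.92.

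Scarf1 (chr11:75327042-75340084 of mm9, plus strand), the class F receptor that takes up acetylated low-density lipoprotein and apoptotic cells, did not share this order. It had 331, 333 and 398 CPM in the young samples and 333, 288 and 278 CPM in the aged samples. The 127-week sample lay within the young range, so the ages overlapped. The log2 fold change was -0.24 (SE 0.16, adjusted p = 0.582 in edgeR), and the differences within the clusters were -0.23 and -0.26.

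Mrc1 (chr2:14151041-14253684 of mm9, plus strand) encodes the mannose receptor, which binds mannose, N-acetylglucosamine and collagen chains and supplies sinusoidal ECs with lysosomal enzymes from the blood. In the young samples it had 1783, 1773 and 1802 CPM, and in the aged samples 535, 1219 and 383 CPM. The young samples agreed more closely than for any other receptor here (SD 14.6 around a mean of 1786), while the aged samples were spread widely (SD 445 around 712, n = 3 each). Between the ages the log2 fold change was -1.33 (SE 0.41, adjusted p = 0.294 in edgeR and 0.0246 in DESeq2). Within the clusters it differed by -1.38 and -1.75, and the log2 fold change was -1.96 without the 131-week sample and -1.02 without the 136-week sample. Set against Stab2 in the same libraries, the log2 ratio of Mrc1 was -0.70, -0.85 and -0.75 in young and 0.086, -0.53 and -0.50 in the aged samples. The means of this ratio differed by 0.45, with no overlap of the ages (two-sided exact permutation p = 0.1, adjusted p = 0.133).

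Clec4g and Cd209b are C-type lectins whose genes lie on the same chromosome. Clec4g (chr8:3707064-3720651 of mm9, minus strand) encodes LSECtin, a sinusoidal lectin that binds glycans on viruses and on activated T cells. Its CPM was 3670.2, 3891 and 4253 in the young samples and 1356, 2368 and 565 in the aged samples. The 136-week sample was the lowest, at 14.3% of the young mean, and the ages were apart. The log2 fold change was -1.46 (SE 0.47, adjusted p = 0.307 in edgeR and 0.0237 in DESeq2). Clusters gave differences of -1.71 and -1.65. Leaving out the 136-week sample gave -1.08 and leaving out the 131-week sample -2.04. An opposite-strand transcript, Gm16553, and a pseudogene on the same strand, Gm9814, overlap exons of Clec4g by 92 and 270 bases, so its counts are uncertain to that extent.

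Cd209b (chr8:3917657-3926844 of mm9, minus strand), a mouse relative of DC-SIGN that binds microbial polysaccharides, was the least abundant receptor. It had 14.1, 15.1 and 16.0 CPM in the young samples and 2.99, 11.4 and 4.26 CPM in the aged samples. The ages did not overlap, and the lowest value was in the 127-week sample. edgeR gave a log2 fold change of -1.28 (SE 0.47, adjusted p = 0.350), and the clusters differed by -0.95 and -2.09. With DESeq2 the adjusted p was 0.122. Without the 131-week sample edgeR gave -2.06, and without the 127-week sample -0.94.

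Fcgr2b (chr1:172890689-172906678 of mm9, minus strand) encodes the inhibitory IgG receptor that clears small immune complexes in sinusoids. Young samples had 1311, 1464 and 1477 CPM and the aged samples had 583, 1239 and 461 CPM. The 131-week sample was close to the young samples, at 87.4% of their mean, and the other aged samples were far below. The log2 fold change was -0.90 (SE 0.36, adjusted p = 0.374 in edgeR and 0.153 in DESeq2), with cluster differences of -0.87 and -1.34. It was -1.44 without the 131-week sample and -0.64 without the 136-week sample. Against Stab2, the log2 ratio of Fcgr2b was -1.15, -1.13 and -1.03 in young and 0.21, -0.51 and -0.23 in the aged samples. Its means differed by 0.93 without overlap (two-sided exact permutation p = 0.1, adjusted p = 0.133). Of the 75-base stretches of the annotated Fcgr2b transcripts, 5.61% also occur in Fcgr3, the activating receptor gene, and in none of the other receptors was a stretch of this length shared with another gene's coding transcripts. Fcgr3 itself stood at 1.04 to 6.62 CPM over the 6 samples.

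The neonatal Fc receptor gene Fcgrt, which returns IgG and albumin from endosomes to the blood, had 1415, 1458 and 1243 CPM in young and 592, 1111 and 464 CPM in the aged samples. The aged samples had the same order as for Fcgr2b, and the ages did not overlap (log2 fold change -0.93, SE 0.32, adjusted p = 0.332 in edgeR). Of 6 listed genes for other IgG receptors and their adaptor (Fcgr1, Fcgr3, Fcgr4, Fcgrt, Fcer1g and Trim21), 5 had a positive log2 fold change. Only Fcgrt was negative. In edgeR 0 of the 5 had an unadjusted p below 0.05, while Fcgrt did. Of the 5, Fcgr1, Fcgr3 and Fcgr4 were low, at 0.194 to 6.62 CPM over the 6 samples. Fcer1g was nearly level between the ages (log2 fold change 0.02).

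Oit3 (chr10:58885706-58904526 of mm9, minus strand) encodes a secreted protein with a zona pellucida domain that is known as a marker of liver sinusoidal ECs, and it is less well characterized as a receptor than the others. It had 2203, 2219 and 2735 CPM in the young samples and 789, 1352 and 745 CPM in the aged samples. The ages were apart, with the 131-week sample again the highest of the aged. The log2 fold change was -1.31 (SE 0.28, adjusted p = 0.209 in edgeR and 3.3e-04 in DESeq2), and the clusters differed by -1.14 and -1.79.

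Lyve1 (chr7:117994121-118006467 of mm9, minus strand) encodes a hyaluronan receptor of lymphatic ECs and of liver sinusoidal ECs. It had 391, 537 and 671 CPM in the young samples and 661, 223 and 1506 CPM in the aged samples. The aged samples held both the lowest and the highest value of the 6, and the ages overlapped. The log2 fold change was 0.58 (SE 0.60, adjusted p = 0.752 in edgeR). It was -0.27 without the 136-week sample and 1.02 without the 131-week sample, and differences within the clusters were 0.34 and -0.02. The order of the aged samples was opposite to that of Stab2, Mrc1 and Clec4g in that the 131-week sample, the highest for them, was the lowest for Lyve1. The log2 ratio of Lyve1 to Stab2 was -2.89, -2.58 and -2.17 in young and 0.39, -2.98 and 1.47 in the aged samples. This ratio differed by 2.18 between the ages, with overlap (two-sided exact permutation p = 0.4, adjusted p = 0.4). Without the 136-week sample the difference was 1.25, and without the 131-week sample 3.48.

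Markers of lymphatic ECs moved with Lyve1 among the aged samples. Of 7 listed, 6 were tested and Ccl21a had no count in any sample. Their summed CPM was 677 to 1780.0 in the young samples and 3022, 1234 and 5565 in the aged samples. All 6 had a positive log2 fold change, 4 of them with an unadjusted p below 0.05 and 0 with groups apart. The lymphatic master regulator Prox1 had 27.1, 34.1 and 16.1 CPM in young and 68.2, 26.3 and 159.5 CPM in the aged samples. Mmrn1, a matrix protein of lymphatic ECs, had 989, 1263 and 477 CPM in young and 2052, 903 and 3916 CPM in the aged samples. Both were highest at 136 weeks, next at 127 weeks and lowest of the aged at 131 weeks, as was Lyve1, but among the young samples they were lowest in replicate 3, where Lyve1 was highest. The part of lymphatic ECs in the Lyve1 values was not tested.

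**Figure D2:**
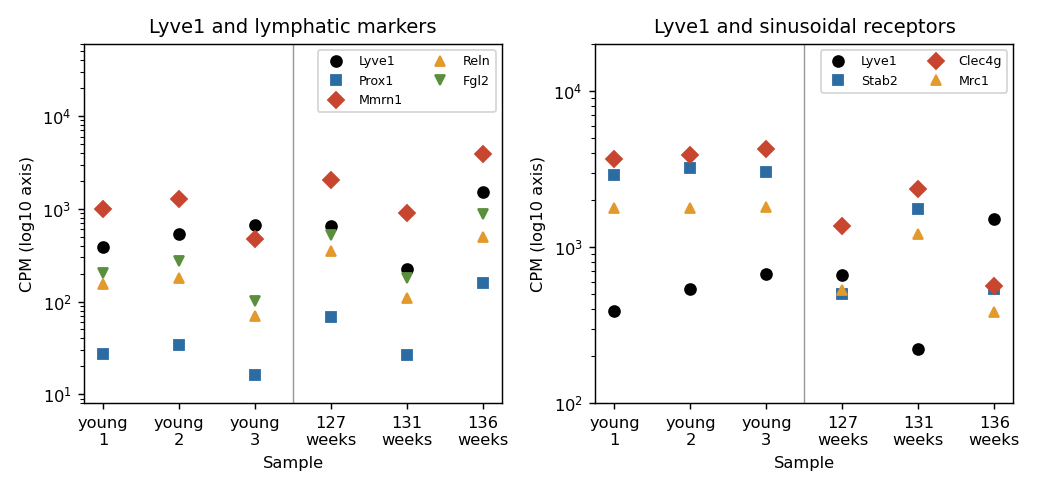
CPM (log10 axis) in each of the 6 samples, with young samples left and aged samples right of the vertical line. The left panel shows Lyve1 with 4 lymphatic markers and the right panel Lyve1 with 3 sinusoidal receptors. In the 131-week sample Lyve1 (223 CPM) is lowest while Stab2, Clec4g and Mrc1 are highest among the aged samples.

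Levels can be compared between genes on the deposited FPKM scale, which divides by transcript length. In young ECs the order from the highest mean was Clec4g (3702 FPKM), Fcgr2b (1138), Oit3 (919), Stab2 (366), Stab1 (344), Mrc1 (338), Msr1 (238), Lyve1 (215), Scarf1 (128) and Cd209b (8.0). Of these neighbours, Fcgr2b and Oit3, Stab2 and Stab1, Stab1 and Mrc1, and Msr1 and Lyve1 overlapped in their ranges over the 3 young samples, and the other neighbours did not. In aged ECs the order was Clec4g (1334 FPKM), Fcgr2b (606), Oit3 (367), Lyve1 (318), Stab1 (207), Mrc1 (134), Stab2 (111), Scarf1 (108), Msr1 (104) and Cd209b (3.25), and every neighbour overlapped the next except Msr1 and Cd209b. Clec4g ranked 10, 9 and 6 among all genes by FPKM in the young samples, and 27, 21 and 130 in the aged samples. Stab2 ranked 250, 206 and 192 in young and 1474, 452 and 1433 in the aged samples. Lyve1 ranked 624, 440 and 276 in the young samples and 264, 1075 and 110 in the aged samples. The FPKM order depends on the transcript lengths used. With CPM per kilobase of annotated exon, Clec4g stayed first and Cd209b last at both ages, but Oit3 came before Fcgr2b at both ages, and in aged ECs Lyve1 did too.

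**Figure D3:**
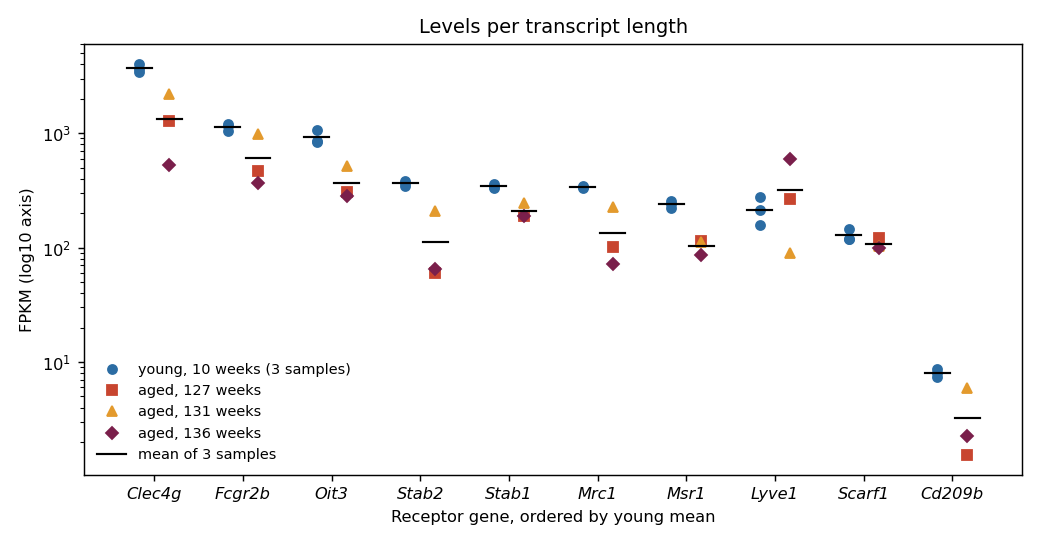
Deposited FPKM of each receptor gene (log10 axis), ordered from left to right by the young mean. Symbols are the single samples and the bars are means of 3 samples; Clec4g has the highest and Cd209b the lowest mean at both ages, Lyve1 lies above Clec4g in the 136-week sample, and the aged symbols of neighbouring genes overlap more than the young ones.

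The aged samples also differed among themselves. For all 8 genes whose ages were apart, the 131-week sample had the highest of the aged CPM values. On deposited FPKM this held for all but Msr1, with 113, 112 and 85.8 FPKM in the aged samples. Among the 1217 genes with this order of ages, the highest aged value was that of 131 weeks in 58.3%, and among all genes tested in 32.4%. The lowest CPM was in the 136-week sample for 5 of the 8 (Mrc1, Fcgr2b, Clec4g, Msr1 and Oit3) and in the 127-week sample for 3 (Stab1, Stab2 and Cd209b). As a percentage of the young mean, the 8 genes ran from 50.6% (Msr1) to 87.4% (Fcgr2b) at 131 weeks, from 16.6% (Stab2) to 54.4% (Stab1) at 127 weeks and from 14.3% (Clec4g) to 54.7% (Stab1) at 136 weeks. With 1 sample at each of these ages, a difference between them has no replicate.

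Other markers of sinusoidal ECs also had lower values in aged ECs. All 14 genes of that list had a negative log2 fold change, 10 of them with an unadjusted p below 0.05 and 11 with all aged samples below all young samples, and the median was -0.93. Dnase1l3, a secreted DNase, had 3351, 3200 and 2473 CPM in young and 699, 1954 and 533 CPM in the aged samples (log2 fold change -1.50, SE 0.48, adjusted p = 0.308 in edgeR). Gpr182, an atypical chemokine receptor, had a log2 fold change of -1.09 (SE 0.27, adjusted p = 0.237 in edgeR). Gata4, the transcription factor that specifies sinusoidal ECs, had 546, 549 and 512 CPM in young and 492, 667 and 322 CPM in the aged samples, with overlap (log2 fold change -0.12, adjusted p = 0.908 in edgeR). Of 10 pan-endothelial markers, 7 were negative and 3 positive with a median of -0.19, and 2, Robo4 and Esam, had an unadjusted p below 0.05 in the lower direction. For 4 of the 10, all aged samples were below all young samples, an order found in 8.33% of all genes, and 0 had the reverse order. Of 12 markers of larger vessels, 10 were positive with a median of 0.42, and 5 had an unadjusted p below 0.05 in the higher direction. They included Vcam1, with 841, 951 and 876 CPM in young and 1631, 1918 and 2633 CPM in aged samples. For 6 of the 12, all aged samples were above all young samples, an order found in 9.62% of all genes, and 0 had the reverse order. The summed CPM of this list was 4639 to 6781 in young and 6252 to 7855 in aged samples, an overlapping range. What part a different mix of ECs has in the receptor values was not tested.

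The summed levels of macrophage, B cell and T cell markers were lowest of the aged samples at 131 weeks, where 8 of the receptors were highest. The 16 markers of Kupffer cells and other macrophages summed to 136 to 149.8 CPM in the young samples and to 263, 44.2 and 651 CPM in the aged samples. Of these, 11 were positive and 5 negative, 4 had an unadjusted p below 0.05 in the higher direction, and 0 had groups apart. The sample with most of these counts, at 136 weeks, had the lowest Mrc1 and Msr1 values of the 6. Both genes are also known from macrophages. The summed CPM of 7 B and plasma cell markers was 2.53 to 6.92 in young and 5.33, 3.85 and 22.7 in aged samples (Pax5 was at 0 throughout). That of the T and NK cell markers was 7.48 to 9.88 in young and 19.9, 9.65 and 36.7 in aged samples, and 0.978 to 1.78 and 6.43, 0.856 and 23.8 without Lck. Of the 7 tested genes of this list, 5 (Cd3d, Cd3e, Cd3g, Nkg7 and Klrb1c) passed the filter on low counts only through aged samples, which favours the higher direction, so no count or median is given for it. For dendritic cell markers it was 104.6 to 136 in young and 83.5 to 121 in aged samples. Hepatocyte markers summed to 234 to 315 CPM in young and 183 to 320.4 CPM in aged samples, but without Trf to 98.1 to 173 and 77.1 to 91.9 CPM, with all aged below all young sums. Of these 8 markers, 7 were negative, 2 of them with an unadjusted p below 0.05 and 3 with groups apart, and the median log2 fold change was -0.77. Stellate and mural cell markers summed to 127 to 405 CPM in young and 221 to 692 CPM in aged samples, and without Reln, which is also in the lymphatic list, to 56.8 to 249 and 98.7 to 197 CPM. The part of these cells in the receptor values was not tested.

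The list of 28 other scavenger and endocytic receptors did not share the direction of the 10 genes. Of its 25 tested members, 15 were positive and 10 negative with a median log2 fold change of 0.40. This median was 0.068 with limma-voom and 0.56 with a filter of CPM of at least 1 in 3 samples. With edgeR, 9 members had an unadjusted p below 0.05 in the higher and 0 in the lower direction. Cubn, 1 of the 15, passed the filter only through aged samples. DESeq2 gave such a p to 1 in the lower direction, and called 5 higher. Ly75, which encodes the lectin DEC-205 of the mannose receptor family, had 1.38, 1.94 and 1.29 CPM in young and 6.16, 5.02 and 4.35 CPM in the aged samples. All aged samples were above all young samples, with a log2 fold change of 1.75 (SE 0.34, adjusted p = 0.193 in edgeR). Cd14, the lipopolysaccharide co-receptor, had 10.4, 12.1 and 10.3 CPM in young and 20.1, 34.6 and 56.8 CPM in the aged samples (log2 fold change 1.76, SE 0.36, adjusted p = 0.203 in edgeR). The direction differed with the level. Every positive gene of the list had a young mean of at most 30.6 CPM (Igf2r). The abundant receptors Cd36 and Scarb1, for fatty acids and for high-density lipoprotein, had log2 fold changes of -0.22 and -0.15. Their adjusted p were 0.838 and 0.724 in edgeR. Also negative were Scarb2 (-0.47), Pla2r1 (-0.56), M6pr (-0.27) and Thbd (-0.11), with young means of 340, 110, 216 and 804 CPM. In the lower direction the smallest p were those of M6pr (log2 fold change -0.27, adjusted p = 0.433 in edgeR), which sorts lysosomal enzymes, and Marco (log2 fold change -4.03, adjusted p = 0.458 in edgeR), a macrophage receptor with 11.4 CPM in young replicate 1 and at most 0.69 CPM elsewhere.

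The genes that act after ligand binding had medians nearer to 0 than the receptors. Of 32 genes of clathrin-mediated endocytosis, 25 were negative and 7 positive with a median log2 fold change of -0.23. For 8 of the 32 all aged samples were below all young samples, against 8.33% of all genes. The reverse order held for 3, against 9.62% of all genes. With edgeR, 5 (Ap2a2, Ap2s1, Clta, Eps15 and Hip1) had an unadjusted p below 0.05 in the lower and 2 (Cltb and Hip1r) in the higher direction. In the lower direction DESeq2 gave such a p to 8 (758 of all genes) and limma-voom to 11 (894 of all genes). Each gave it to 2 in the higher direction. Ap2a2, a subunit of the adaptor that couples receptors to clathrin, had 366, 377 and 386 CPM in young and 229.9, 277 and 176 CPM in the aged samples (log2 fold change -0.73, SE 0.19, adjusted p = 0.250 in edgeR). The clathrin light chains went in opposite directions, Clta with a log2 fold change of -0.50 and Cltb with 0.52. Neither passed an adjusted p of 0.05 in edgeR (0.291 and 0.308). Hip1r, which links coated pits to actin, had 9.86, 10.7 and 7.89 CPM in young and 19.6, 14.4 and 27.7 CPM in the aged samples (log2 fold change 1.12, SE 0.28, adjusted p = 0.238 in edgeR).

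Genes of early endosomes, recycling and sorting went in both directions, with 17 of 33 positive, 16 negative and a median of 0.016. All aged samples were below all young samples for 6 of the 33 and above them for 3, against 8.33% and 9.62% of all genes. In each direction 2 of the 33 had an unadjusted p below 0.05, against 8.32% of all genes in the higher and 4.32% in the lower direction. With library totals in place of TMM, 3 genes of this list had such a p in the higher and 0 in the lower direction. With TMM these were Ehd4 (log2 fold change 0.60) and Rabgef1 (0.95), which shape endosomes and activate Rab5, and Snx2 (-0.57) and Pik3c3 (-0.38), a retromer subunit and the lipid kinase of endosomes. None of the 4 had an adjusted p under 0.256 in edgeR. Ehd3, an endosomal recycling protein known as abundant in sinusoidal ECs, had 5556, 4472 and 4315 CPM in young and 2466, 4269 and 760.2 CPM in the aged samples. The ages were apart by a small margin at 131 weeks, and the log2 fold change was -0.94 (SE 0.54, adjusted p = 0.538 in edgeR). Of 19 tested genes of late endosomes and lysosome fusion, 16 were negative and 3 positive with a median of -0.14. With edgeR 0 of them had an unadjusted p below 0.05, against 1 with DESeq2. All aged samples were below all young samples for 4 of the 19 and above them for 0. The smallest p in the lower direction were those of Plekhm1, a lysosomal fusion adaptor (log2 fold change -0.33, adjusted p = 0.440 in edgeR), and of Lamp1. Lamp1, a major lysosomal membrane protein, had the log2 fold change -0.35 (adjusted p = 0.456 in edgeR).

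Hyaluronan is a ligand of the receptors encoded by Stab2 and Lyve1. Of 14 tested genes that make, bind or break it down, 7 were positive and 7 negative with a median of -0.02, and 1 of the former, Has2, passed the filter only through the 136-week sample. Tmem2, a cell-surface hyaluronidase, had 921, 1134 and 1459 CPM in young and 793, 774 and 620.2 CPM in the aged samples (log2 fold change -0.68, SE 0.22, adjusted p = 0.308 in edgeR). Hyal2, another hyaluronidase of the cell surface, had 644, 659 and 644 CPM in young and 423, 519 and 275 CPM in the aged samples (log2 fold change -0.68, SE 0.24, adjusted p = 0.332 in edgeR). In both the ages were apart. Itih2, a heavy chain of the protein that binds hyaluronan in plasma, was the gene with an unadjusted p below 0.05 in the higher direction (log2 fold change 1.61, SE 0.48, adjusted p = 0.278 in edgeR).

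**Figure D4:**
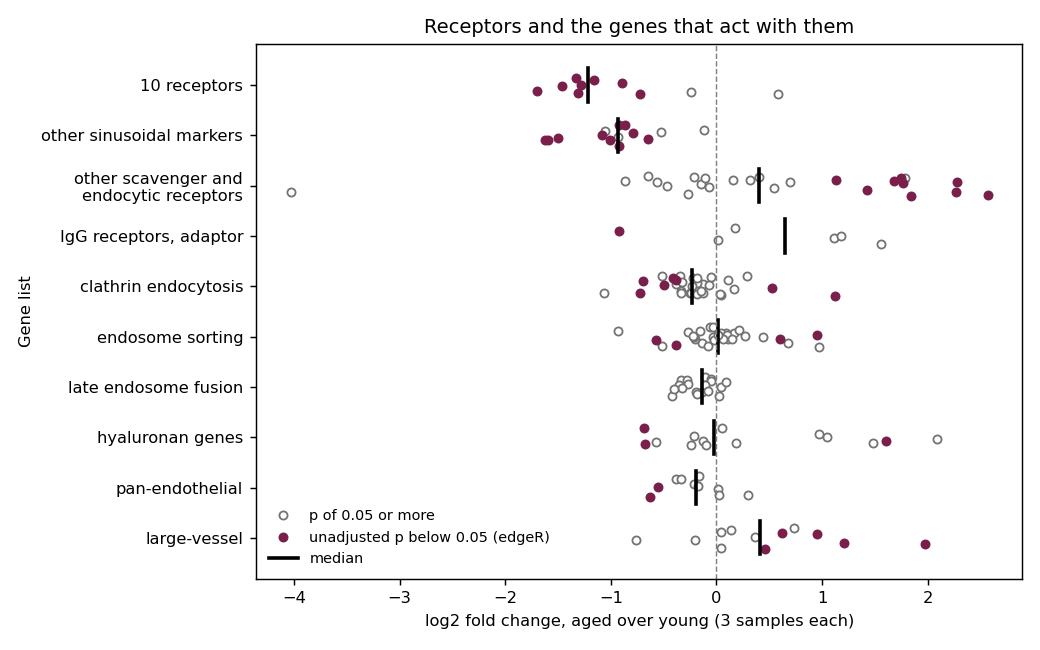
Log2 fold change of aged over young ECs (horizontal axis, 3 samples each) for every tested gene of 10 lists (rows). Filled points have an unadjusted p below 0.05 in edgeR, open points do not, and the bar is the list's median, which is -1.22 for the 10 receptors, -0.93 for other sinusoidal markers and 0.40 for other scavenger and endocytic receptors.

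For each receptor, the genes were sought whose profile over the 6 samples was most like its own, by the root mean square (RMS) difference of centred log2(CPM + 1) values among 8912 genes with a mean of at least 10 CPM. For a given receptor, smaller values mean closer profiles. The RMS is not scaled to a receptor's own spread over the 6 samples, so it is not comparable between receptors. That spread ran from an SD of 0.18 (Scarf1) to 1.25 (Stab2). Stab2 was closest to Dnase1l3 (RMS 0.23), Cntfr (0.26) and Mrc1 (0.31), and Mrc1 to Dpp4 (0.076), Nqo2 (0.11) and Dnase1l3 (0.20). For Fcgr2b they were Cnr2 (0.049), Slc43a2 (0.10) and Fcgrt (0.12), and for Clec4g they were Plxnc1 (0.19), Gm4980 (0.21) and Pnp2 (0.24). Cd209b was nearest to Scamp5 (0.15), Bmp2 (0.16) and Cntfr (0.19), Oit3 to Susd1 (0.17), Tmem106a (0.17) and Nqo2 (0.18), and Msr1 to Wisp1 (0.16), Gstk1 (0.16) and Serpina1b (0.18). Stab1 was nearest to Tmem132e (0.067), Arhgdib (0.077) and Chst15 (0.089), and Scarf1, which varied least, to Slc4a2 (0.031), Fmnl2 (0.034) and Wbscr22 (0.039). Lyve1 stood closest to Usp18 (0.23), Ifit2 (0.25) and Mical2 (0.26). Of these genes, Dnase1l3, Plxnc1, Bmp2 and Fcgrt also belong to the list of other sinusoidal markers.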

How the data were processed

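RNA from CD31+CD45- liver ECs of 3 young and 3 aged samples was read as 75-base single-end reads. The authors mapped the reads to mm9 with TopHat (2.1.0, after CASAVA 1.8.2) and deposited raw counts per gene, as whole numbers, for 24421 symbols. For 24346 symbols the deposited table of FPKM was made by the authors with Cuffnorm (2.2.1). The counting program, its annotation and its strand setting are not given in the sources used here.

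The 14612 genes that reached 0.5 CPM in any 1 sample were scaled by TMM, and aged and young ECs were compared by edgeR (4.0.16, R 4.3.3) with its quasi-likelihood F-test and Benjamini-Hochberg adjustment. Genes were called at an adjusted p below 0.05 where log2 fold changes also exceeded 1 in size. Standard errors (SE) are the log2 fold change over the square root of F. DESeq2 (1.42.0), limma (3.58.1, with voom or on log2 FPKM with pseudocounts of 0.1 and 1), other scalings and filters, a library cluster term and the removal of each sample were alternatives. At these depths 3 counts are 0.0948 to 0.130 CPM, a floor that covers counting error only. Counts of replicates differed by a chi-square of at least 21.3 per degree of freedom, so no library appears to be deposited more than once. Positions are those of GENCODE on mm9. The receptors and gene lists were chosen with earlier results of these data known. Named genes are the 10 receptors, up to 2 genes per list and direction by smallest p, defining markers and the 3 closest profiles per receptor; Cd36, Scarb1, Ehd3 and Vcam1, and all genes named beyond 2 per direction, were added after their values were seen. The tests were tried on simulated counts. The paper's own comparisons were not used.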

Additional observations from a re-analysis of the deposited data

How the results depend on the processing

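The direction of the 10 receptor log2 fold changes was kept in 169 of 170 values from 17 alternatives. The exception was Lyve1 without the 136-week sample, at -0.27. An unadjusted p below 0.05 was kept in 17 of 17 alternatives for Stab1, Stab2, Mrc1, Clec4g, Msr1 and Oit3, in 13 for Cd209b and in 11 for Fcgr2b. Without single samples, 6 to 8 receptors in the lower direction had such a p, 0 to 1 in the higher direction (Lyve1 without the 131-week sample, at 1.02), and 8 to 9 had all aged below all young values, an order that 11% to 16% of all genes then had. On deposited FPKM, a comparison added after seeing the data, 8 receptors and 8.78% of all genes had it.

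Calls at an adjusted p of 0.05 depended on the tool. edgeR made 0, DESeq2 395 higher and 77 lower with 5 receptors lower, and limma-voom 13 higher and 2 lower with 1 receptor lower (Msr1). Limma on log2(FPKM + 0.1) made 1 higher, edgeR without a filter on low counts 3 higher and 1 lower, and edgeR with the library cluster term 1 higher and 1 lower, with 961 genes lower at an unadjusted p below 0.05. Without single samples the count of genes past the adjusted threshold in the higher direction was 0 to 1, and at an unadjusted p below 0.05 it was 729 to 1549 higher and 346 to 887 lower (lowest without the 136-week sample for the first and without young replicate 2 for the second). The cause of these differences was not tested. Among list counts, the median of the other scavenger receptors ran from 0.068 (limma-voom) to 0.56 (CPM of at least 1 in 3 samples), and clathrin genes lower at an unadjusted p below 0.05 reached 11 with limma-voom.

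No paired analysis was made, because neither the labels nor the methods give a pairing of young with aged samples. The fewest counts of a receptor in any library were 87, of Cd209b at 127 weeks.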

Other observations

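Clec4g and Cd209b lie 197005 bases apart on chromosome 8 (mm9), and the genes around them were looked at after these values were seen. Of 16 other tested genes within 300 kb on either side, 0 had all aged samples below all young samples and 8 had a negative log2 fold change. Camsap3 (log2 fold change 1.03, SE 0.28, adjusted p = 0.256 in edgeR) had all aged above all young samples. So had Lrrc8e, at 0.158 to 0.186 CPM in young and 0.487 to 0.895 CPM in aged samples, but it passed the filter on low counts only through aged samples. The neighbouring relatives of Cd209b, Cd209a and Cd209c, had log2 fold changes of 0.49 and 0.19 with overlapping ages, at levels of 0.316 to 4.88 CPM. Cd209f and Cd209g, also among the 16, passed the filter only through the 136-week sample, with 0.934 and 0.690 CPM there and at most 0.158 CPM in any other sample.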
